A study of Mus musculus with 24 samples.

Results

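Stra8 and 9 further genes that govern the passage of male germ cells from mitotic growth into meiosis were followed in RNA-seq libraries of mouse testis cells. The 10 genes were Stra8, Rec8, Meioc, Ythdc2, Rbm46, Dmrt1, Sohlh1, Sohlh2, Kit and Zbtb16, and each was found once by its Ensembl identifier among the 55536 genes of the count table. Stra8 was chosen on its level in heterozygous against wild-type spermatocytes in these same libraries. For that reason no member was tested in that comparison, and Stra8 was not tested in any comparison that used those libraries. Testes of 2 to 5 mice were combined in each preparation, and cells were separated on an albumin gradient into a fraction enriched for pachytene/diplotene spermatocytes and a fraction enriched for round spermatids. The labels give purity as above 70%. The mice were C57BL/6J males of 10 to 15 weeks and were Ago413+/+ (wild type), Ago413+/- (heterozygous) or Ago413-/- (null). The Ago413 deletion lies on chromosome 4, removes Ago1 entirely and Ago3 and Ago4 in part, and is present in all cells of the animal, so no group separates germ cells from the somatic testis. The line came from 129 embryonic stem cells, passed through a Sox2-cre deleter and was backcrossed. No allele or agent other than the deletion is named for the groups.

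The labels call 3 of the 24 libraries outliers, and these were left out of the comparisons. The 21 libraries used comprised 10 of spermatocytes (4 wild-type, 3 heterozygous, 3 null) and 11 of round spermatids (3 wild-type, 4 heterozygous, 4 null). Total counts ran from 12825100 to 29749100 in spermatocytes and from 15446700 to 27433500 in round spermatids. Levels are CPM, that is, counts scaled to the library total, with TMM factors that correct for a few very abundant transcripts. A gene was called changed when edgeR's quasi-likelihood test gave a Benjamini-Hochberg adjusted p below 0.05 and a log2 fold change beyond 0.5 in either direction. Replicates are separate preparations by label, and no source states which mice went into each one, so p-values measure the spread between these preparations.

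In the male germ line, retinoic acid switches on Stra8 as spermatogonia commit to meiosis, and STRA8 acts with its partner MEIOSIN as a transcription factor for meiotic genes. Rec8 encodes a meiotic cohesin subunit. MEIOC, the RNA helicase YTHDC2 and the RNA-binding protein RBM46 act on transcripts and let the meiotic programme replace the mitotic one. DMRT1 and ZBTB16 belong to the spermatogonial state, SOHLH1 and SOHLH2 drive spermatogonial differentiation, and KIT is the receptor that marks differentiating spermatogonia. These steps precede the pachytene stage, so both fractions were enriched for cells later than the stages at which most of these genes act.

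RefSeq start regions were taken on GRCm38.p6 for 7 of the 10 genes, each with 250 bases before and 50 after the start. Those of Stra8 and Rec8, which stood higher in mutant than in wild-type spermatocytes, and of Meioc and Rbm46, which were lower in round spermatids, are shown so that the letters can be read beside the levels. Capitals mark AGGTCA, the half-site bound by nuclear receptors such as the retinoic acid receptors, and CCTCAG, the core of the motif bound by STRA8 and MEIOSIN, each searched on both strands with overlaps allowed. The windows, on the gene's strand, were chr6:34920698-34920997 on the plus strand for Stra8, chr14:55617916-55618215 on the plus strand for Rec8, chr11:102665335-102665634 on the plus strand for Meioc and chr3:82876434-82876733 on the minus strand for Rbm46.
Stra8: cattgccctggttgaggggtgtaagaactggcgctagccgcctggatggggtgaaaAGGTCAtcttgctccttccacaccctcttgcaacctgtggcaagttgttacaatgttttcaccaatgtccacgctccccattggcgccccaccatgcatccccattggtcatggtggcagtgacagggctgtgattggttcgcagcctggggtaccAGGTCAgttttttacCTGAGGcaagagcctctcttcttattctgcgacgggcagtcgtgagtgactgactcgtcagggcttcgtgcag
Rec8: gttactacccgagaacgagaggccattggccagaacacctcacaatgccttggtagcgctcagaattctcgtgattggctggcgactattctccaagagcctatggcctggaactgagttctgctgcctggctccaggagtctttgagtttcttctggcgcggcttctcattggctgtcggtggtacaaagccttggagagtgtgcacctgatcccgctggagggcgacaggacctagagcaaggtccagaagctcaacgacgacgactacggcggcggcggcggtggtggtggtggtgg
Meioc: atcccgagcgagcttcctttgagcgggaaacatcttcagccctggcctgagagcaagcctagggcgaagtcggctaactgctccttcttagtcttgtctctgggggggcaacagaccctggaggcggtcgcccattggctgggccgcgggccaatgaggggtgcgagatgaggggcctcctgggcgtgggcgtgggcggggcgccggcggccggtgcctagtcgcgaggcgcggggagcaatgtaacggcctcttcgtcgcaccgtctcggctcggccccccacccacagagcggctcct
Rbm46: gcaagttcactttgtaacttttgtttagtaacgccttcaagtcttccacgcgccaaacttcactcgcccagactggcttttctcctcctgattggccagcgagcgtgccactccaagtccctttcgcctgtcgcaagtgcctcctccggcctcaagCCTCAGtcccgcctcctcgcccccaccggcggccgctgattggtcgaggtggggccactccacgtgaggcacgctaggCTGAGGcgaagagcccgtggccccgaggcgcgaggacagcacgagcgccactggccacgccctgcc
The Stra8 window held AGGTCA 2 times, with first bases 194 and 38 bases before the start, and CCTCAG once on the opposite strand, 23 bases before the start. Of 32851 windows of the same length, 16.3% held at least 1 AGGTCA, 1.81% held 2 or more, and 26.8% held CCTCAG, with 4.74% holding 2 or more. Rbm46 held CCTCAG 2 times, whereas the Rec8 and Meioc windows held neither motif. Among the windows not shown, Sohlh1 held 1 AGGTCA, Sohlh2 held 1 CCTCAG and Kit held neither. The E-box CANNTG, the class of site bound by basic helix-loop-helix factors such as SOHLH1 and SOHLH2, occurred in 72.3% of all windows, 5 times in that of Sohlh1 and not in that of Stra8 or Meioc. These matches describe the letters only.

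The libraries were first held against their labels. Ago1 had 0 counts in each of the 7 null libraries and between 32 and 122 counts in the other libraries used. Ago3 counts rose in the null, with a log2 fold change against wild type of 3.23 (SE 0.41, edgeR's adjusted p = 0.00826) in spermatocytes and 2.68 (SE 0.38, edgeR's adjusted p = 0.0108) in round spermatids. The study's methods state that the null still makes Ago3 and Ago4 transcripts, which carry premature stop codons, and report loss of the proteins by western blot. In heterozygous libraries the Ago3 difference was 2.17 (SE 0.40, not tested) in spermatocytes. It was 2.16 (SE 0.37, edgeR's adjusted p = 0.147) in round spermatids. Ago4 averaged 12.4 CPM in null and 32.5 CPM in wild-type spermatocytes and was not called by edgeR (adjusted p = 0.0608). The summed level of 12 round spermatid markers was 3870 to 8670 CPM in wild-type, 7960 to 9190 CPM in heterozygous and 4680 to 13200 CPM in null spermatocyte libraries used, and 16500 to 42600 CPM in the round spermatid libraries used. All 12 were detected in every group, as were all 12 pachytene and diplotene markers, which summed to 8980 to 12300 CPM in spermatocytes and 9110 to 10500 CPM in round spermatids. The library left out as round spermatid wild-type replicate 3 held 5950 CPM of round spermatid markers, a value inside the spermatocyte range. The library left out as spermatocyte wild-type replicate 3 held 14400 CPM, above every spermatocyte library used, and spermatocyte null replicate 1 was the used spermatocyte library with the highest sum. In bulk libraries, fewer cells of a type and less RNA per cell cannot be told apart.

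All 10 genes had counts in all 24 libraries, the lowest being 19 counts for Zbtb16 in a left-out library. Per kilobase of exon, Rec8 had the highest mean in every group, and Zbtb16 the lowest. In wild-type spermatocytes the order was Rec8 at 33.3 ± 8.84 CPM per kilobase (SD, n = 4), Meioc at 24.7 ± 6.80, Rbm46 at 12.9 ± 3.58, Dmrt1 at 3.12 ± 0.545, Stra8 at 2.46 ± 0.455, Ythdc2 at 2.09 ± 1.04, Sohlh1 at 1.14 ± 0.268, Sohlh2 at 1.14 ± 0.376, Kit at 0.633 ± 0.163 and Zbtb16 at 0.341 ± 0.128 (SD, n = 4 for each). The means of Rec8 and Meioc differed by less than their summed SDs. The same held for each neighbouring pair from Dmrt1 down to Kit, while Meioc and Rbm46, Rbm46 and Dmrt1, and Kit and Zbtb16 lay further apart. In heterozygous spermatocytes Stra8 moved from the fifth to the third place, at 10.1 ± 2.72 CPM per kilobase (SD, n = 3), within the summed SDs of Rbm46 below it. In wild-type round spermatids Rec8 stood at 50.3 ± 9.78 and Meioc, next in order, at 7.46 ± 0.352 CPM per kilobase (SD, n = 3).

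**Figure D1:**
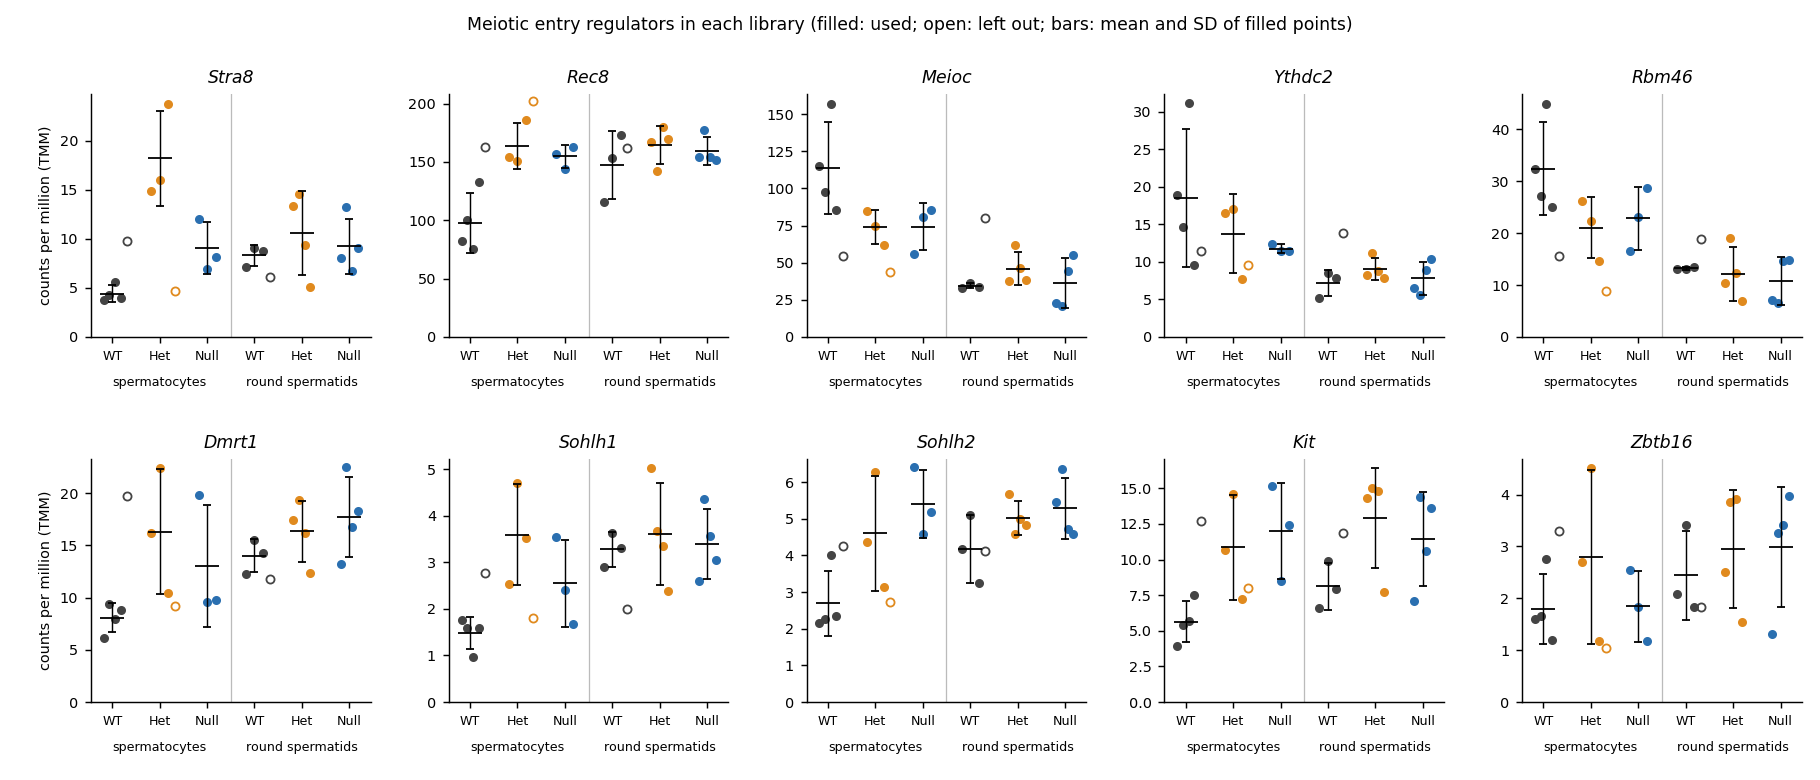
CPM (TMM-scaled, linear axes from 0) of each of the 10 genes in every library, by fraction and genotype (WT, Ago413+/+; Het, Ago413+/-; Null, Ago413-/-). Filled points are the 21 libraries used, open points the 3 that the labels call outliers, and bars the mean and SD of the filled points; the 4 wild-type spermatocyte libraries lie low for Stra8 and high for Meioc.

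Stra8 is described first. Its CPM was 3.81, 4.29, 5.62 and 4.0 in the wild-type spermatocyte libraries, 14.9, 16 and 23.8 in the heterozygous ones and 12, 6.95 and 8.17 in the null ones. The 3 genotypes did not overlap in spermatocytes, with wild type lowest, null between and heterozygous highest. The log2 fold change was 2.08 (SE 0.27) for heterozygous against wild type, 1.05 (SE 0.27) for null against wild type and -1.03 (SE 0.28) for null against heterozygous. These are the values that chose the gene or share their libraries, and no test was made. With the libraries called outliers, the order was not kept, since Stra8 stood at 9.75 CPM in the left-out wild-type library and at 4.64 CPM in the left-out heterozygous library, and the heterozygous difference was then 1.49 on the log2 scale.

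In round spermatids, Stra8 CPM was 7.10, 9.08 and 8.79 in wild type, 13.4, 14.6, 9.39 and 5.08 in heterozygous and 8.0, 13.2, 6.74 and 9.11 in null libraries. The 3 genotypes overlapped there, and neither mutant was called against wild type. The log2 fold change was 0.12 for null (95% interval -0.48 to 0.71, edgeR's adjusted p = 0.862) and 0.33 for heterozygous libraries (95% interval -0.26 to 0.93, edgeR's adjusted p = 0.748). The intervals do not exclude a difference of 0.5. Between the fractions, Stra8 averaged 8.33 ± 1.07 CPM in round spermatids and 4.43 ± 0.819 in spermatocytes of wild-type mice (SD, n = 3 and 4). It averaged 10.6 ± 4.34 and 18.2 ± 4.90 CPM in heterozygous mice (SD, n = 4 and 3), the opposite order. In null mice the averages were 9.26 ± 2.79 and 9.04 ± 2.64 CPM (SD, n = 4 and 3), and the log2 difference of 0.07 (SE 0.30) was not called (edgeR's adjusted p = 0.898).

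Meiosin, whose product is the STRA8 partner, and Kitl, which encodes the KIT ligand made by Sertoli cells, were read whatever their values. Meiosin was at 1.10, 1.28, 2.62 and 1.56 CPM in wild-type, 9.85, 9.95 and 4.05 CPM in heterozygous and 6.08, 3.97 and 6.70 CPM in null spermatocytes. The wild-type libraries used lay below those of both mutant groups. With the left-out libraries included they did not, since Meiosin was at 4.37 CPM in the left-out wild-type library and at 1.75 CPM in the left-out heterozygous one. For null against wild type the log2 fold change was 1.78 (SE 0.38), which edgeR did not call (adjusted p = 0.0599) and DESeq2 did (adjusted p = 0.00113). In round spermatids Meiosin overlapped between genotypes, at 2.13 to 5.42 CPM in wild type, 2.45 to 11.7 CPM in heterozygous and 2.15 to 5.91 CPM in null. In heterozygous libraries 3 of 4 lay above all wild-type libraries used, and the log2 fold change of 0.97 (SE 0.46) was not called (edgeR's adjusted p = 0.562). Kitl lay between 0.676 and 5.19 CPM in all libraries used, and its null against wild-type difference was -0.46 (SE 0.48, edgeR's adjusted p = 0.523) in spermatocytes and 1.35 (SE 0.51, edgeR's adjusted p = 0.169) in round spermatids on the log2 scale.

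Null against wild-type spermatocytes asks what the loss of the 3 Argonaute genes does to the transcripts of meiotic prophase cells. Of the 9 members tested, edgeR called none and 6 had an unadjusted p below 0.05, while DESeq2 called 3 (Rec8, Sohlh2 and Kit). Across all 19450 genes, edgeR called 0.0411% and DESeq2 15.6%, and 30.4% had an unadjusted edgeR p below 0.05. Stra8 is left out of the counts that follow, since these wild-type libraries chose it. Of the other 9 members, 4 were higher in the null without overlap (Rec8, Dmrt1, Sohlh2 and Kit), against 13.6% of all genes, and 1 was lower (Meioc), against 14.5% of all genes. With the left-out libraries included only Sohlh2 still showed no overlap. Log2 fold changes were above 0 for 6 of the 9 members and for 48.3% of all genes, with a median of 0.67 over these members and -0.03 over all genes. Round spermatid markers moved in the same comparison: 11 of 12 were above 0, with a median log2 fold change of 0.60, and edgeR called none of them while 7 had an unadjusted p below 0.05. Of the 12 pachytene and diplotene markers 2 were above 0, with a median of -0.21. Of 6 macrophage markers tested 5 were above 0, with a median of 1.30 and 4 at an unadjusted p below 0.05, and of 10 Sertoli cell markers none was, with a median of -0.77. EdgeR called no gene of these lists, and the part of these cell types in the result was not tested.

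Rec8, which encodes a meiotic cohesin subunit, was at 82.1, 99.9, 75.4 and 133 CPM in wild-type and 157, 144 and 163 CPM in null spermatocytes. Every null library lay above every wild-type one, and wild-type replicate 5 came closest. The log2 fold change was 0.67 (SE 0.20), and the adjusted p was 0.0678 by edgeR and 0.0232 by DESeq2. Heterozygous libraries were at 154, 151 and 186 CPM, also above all wild-type libraries used.

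The 3 RNA regulators had lower means in the null. Meioc, which is needed to keep germ cells in the meiotic programme, was at 115, 97.6, 157 and 85.6 CPM in wild-type and 56.1, 80.9 and 85.4 CPM in null spermatocytes, so that the highest null library lay just under the lowest wild-type library. Its log2 fold change was -0.60 (SE 0.22, adjusted p = 0.0973 by edgeR and 0.0868 by DESeq2). Ythdc2, the helicase that MEIOC works with, was at 9.63 to 31.1 CPM in wild-type and 11.4 to 12.4 CPM in null libraries, a log2 fold change of -0.63 (SE 0.35, edgeR's adjusted p = 0.238). The narrow null range of Ythdc2 lay inside the broad wild-type range. Rbm46 was at 32.4, 27.1, 44.9 and 25.0 CPM in wild-type and 16.6, 23.1 and 28.7 CPM in null libraries, a log2 fold change of -0.48 (SE 0.26, edgeR's adjusted p = 0.224), and the groups overlapped.

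Kit, the first of the spermatogonial regulators, was at 3.96, 5.42, 5.67 and 7.50 CPM in wild-type and 15.2, 8.50 and 12.4 CPM in null spermatocytes, a log2 fold change of 1.10 (SE 0.30, adjusted p = 0.0618 by edgeR and 0.00915 by DESeq2). Sohlh2 was at 2.15, 2.26, 4.02 and 2.35 CPM in wild-type and 6.41, 4.58 and 5.19 CPM in null libraries, a log2 fold change of 1.02 (SE 0.31, adjusted p = 0.0708 by edgeR and 0.0171 by DESeq2). In both genes the null libraries lay above all wild-type libraries used. Dmrt1 was at 6.16, 9.40, 7.95 and 8.82 CPM in wild-type and 19.8, 9.59 and 9.76 CPM in null libraries, a log2 fold change of 0.71 (SE 0.31, edgeR's adjusted p = 0.149). Only null replicate 1 stood well above the wild-type range for Dmrt1. Sohlh1 was at 0.969 to 1.75 CPM in wild-type and 1.68 to 3.54 CPM in null libraries, a log2 fold change of 0.80 (SE 0.35, edgeR's adjusted p = 0.148). Zbtb16, the marker of undifferentiated spermatogonia, was at 1.19 to 2.76 CPM in wild-type and 1.17 to 2.54 CPM in null libraries, a log2 fold change of 0.06 (SE 0.45, edgeR's adjusted p = 0.932).

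The count of members called in this comparison was not stable. Besides the 3 called by DESeq2, edgeR called 3 without the filter on low counts, where it called 7.61% of all genes, and 2 with only the groups compared, where it called 6.93%. Without wild-type replicate 5, edgeR called 3 members, namely Rec8 (adjusted p = 0.00635), Meioc (adjusted p = 0.038) and Kit (adjusted p = 0.0137), while the share of all genes called went to 23.6%. Without wild-type replicate 4 the log2 fold change was -0.35 for Meioc, -0.20 for Ythdc2 and -0.23 for Rbm46, and without null replicate 1 it was 0.25 for Dmrt1 and 0.46 for Sohlh1. With a term for library number the count stayed at 0 and the fitted differences were -0.61 for Meioc, -0.53 for Rbm46, 1.08 for Kit, 0.56 for Rec8 and 0.79 for Dmrt1, with Ythdc2 at -0.29 and Zbtb16 at 0.34. The labels number the libraries and do not say that the numbers mark batches; numbers up to 60 took in 3 wild-type and 1 null spermatocyte libraries, and numbers above 60 took in 1 wild-type and 2 null ones. The log2 ratio of mean CPM, null over wild type, was 1.60 up to 60 and 0.48 above 60 for Kit, 0.87 and 0.20 for Rec8, and 1.34 and 0.13 for Dmrt1. For Meioc it was -1.14 and -0.04, for Rbm46 -1.07 and 0.05 and for Ythdc2 -0.80 and 0.25, so that the lower null levels of the RNA regulators lay in the lower-numbered libraries. The ratios were 1.19 and 1.06 for Sohlh2, 1.39 and 0.92 for Stra8, 1.30 and 0.36 for Sohlh1 and 0.34 and 0.34 for Zbtb16. These parts hold too few libraries for a test. The one null library numbered up to 60 is null replicate 1, in which the round spermatid markers were highest, and the part of those markers in the result was not tested.

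**Figure D2:**
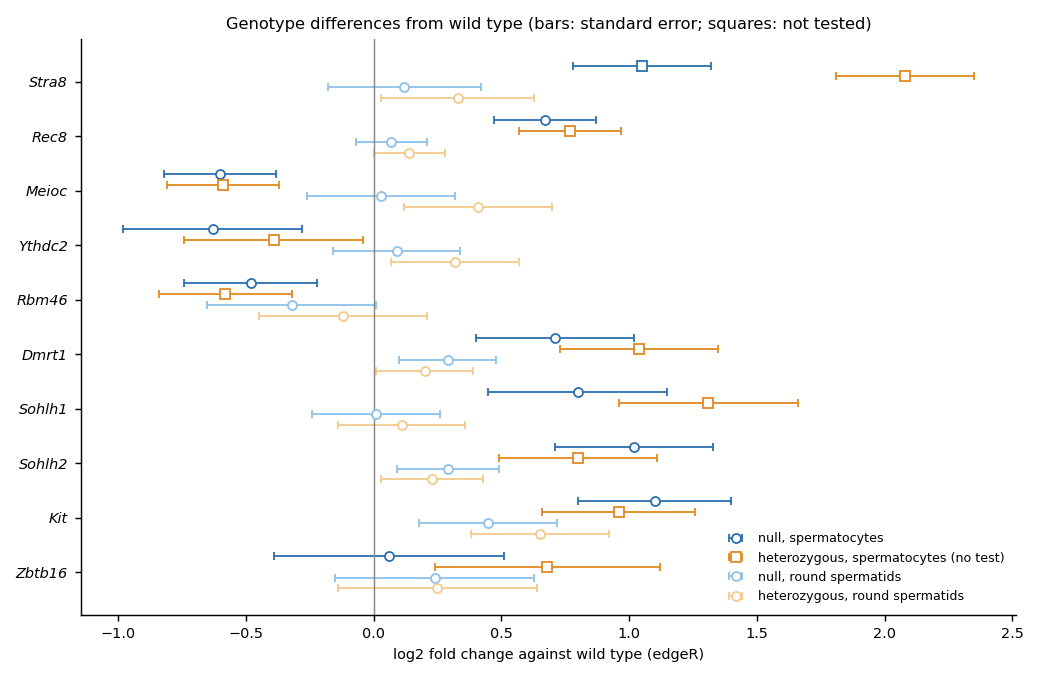
Log2 fold change against wild type (edgeR) of each gene in heterozygous and null libraries of each fraction, with the standard error as a bar. Squares were not tested, and every symbol is open because edgeR called no member in the comparisons that were tested; Stra8 in heterozygous spermatocytes lies furthest right at 2.08.

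The heterozygous spermatocytes are given as a description, since this comparison chose Stra8. Log2 fold changes against wild type were above 0 for 6 of the 9 members other than Stra8 and for 54.4% of all genes. After Stra8 they were 1.31 (SE 0.35) for Sohlh1, 1.04 (SE 0.31) for Dmrt1, 0.96 (SE 0.30) for Kit, 0.80 (SE 0.31) for Sohlh2, 0.77 (SE 0.20) for Rec8 and 0.68 (SE 0.44) for Zbtb16. The same 3 RNA regulators were on the other side of 0, at -0.59 (SE 0.22) for Meioc, -0.58 (SE 0.26) for Rbm46 and -0.39 (SE 0.35) for Ythdc2. The heterozygous and null comparisons share the 4 wild-type libraries, so their signs are not independent. Apart from Stra8, the libraries did not overlap for 3 members that were higher (Rec8, Dmrt1 and Sohlh1; 7.48% of all genes) and for 1 that was lower (Meioc; 10.1% of all genes). With the left-out libraries included, no member was without overlap. All 3 heterozygous spermatocyte libraries used have numbers up to 60, and the left-out one has number 66. Within numbers up to 60, with 3 libraries of each genotype, the log2 ratio of mean Stra8 CPM, heterozygous over wild type, was 1.99. In round spermatids that ratio was 0.63 up to 60 and -0.79 above 60, where each genotype had 1 library. The part of library number in these values was not tested. Round spermatid markers were above 0 for 10 of 12 here, with a median of 0.68, and pachytene and diplotene markers for 2 of 12, with a median of -0.22. All 8 Leydig cell markers tested were above 0, with a median of 1.11, and so were all 6 macrophage markers tested, with a median of 0.75. The part of these cells in the values was not tested.

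Null and heterozygous spermatocytes differed by between -0.61 and 0.22 on the log2 scale for the 9 members tested. None was called by edgeR, none had an unadjusted p below 0.05, against 3.74% of all genes, and DESeq2 called none, while 0.00514% of all genes were called by edgeR. Kit differed by 0.13 on the log2 scale (95% interval -0.49 to 0.76, edgeR's adjusted p = 0.978), and Rec8 by -0.10 (95% interval -0.52 to 0.32, edgeR's adjusted p = 0.978). Zbtb16 had the widest interval, with a difference of -0.61 (95% interval -1.54 to 0.31, edgeR's adjusted p = 0.974). Stra8, which was chosen on the heterozygous libraries, was the 1 member whose libraries did not overlap, lower in the null, as were those of 4.1% of all genes, and none was higher without overlap, as were 4.62% of all genes.

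Each library was also held against the range of the 4 wild-type spermatocyte libraries. Dmrt1, Sohlh1, Sohlh2, Kit and Zbtb16 together made up 15.6 to 21.5 CPM in the 4 wild-type spermatocyte libraries and 25.5 to 52.5 CPM in the other 17 libraries used. The genes of that sum differed among themselves, since Dmrt1 lay above the wild-type spermatocyte range in all 17, Sohlh1 in 16, Sohlh2 in 15, Kit in 14 and Zbtb16 in 7, with 2 below it. A list of 24 further spermatogonial genes, read below, did not share this order. Its sum averaged 112 ± 24.8 CPM in wild-type spermatocytes (SD, n = 4), the highest mean of the groups. The other group means ran from 77.1 ± 11.5 CPM in null spermatocytes (SD, n = 3) to 103 ± 13.8 CPM in null round spermatids (SD, n = 4). Meioc, Ythdc2 and Rbm46 together made up 120 to 233 CPM in wild-type spermatocytes, and 15 of the other 17 libraries lay below that sum. Of the 9 members other than Stra8, Dmrt1 was the 1 member above the range in all 17 libraries, as were 1.32% of all genes, and Meioc the 1 member below it, as were 3.57% of all genes. In at least 15 of the 17, 4 members lay above it (Rec8, Dmrt1, Sohlh1 and Sohlh2, with 7.29% of all genes) and 2 below it (Meioc and Rbm46, with 12.9% of all genes). The cut of 15 equals the counts of Sohlh2 and Rbm46, with Kit just outside at 14. All 17 libraries were held against the same 4, so these counts are a description only. Stra8 and Rec8 together made up 81.0 to 137 CPM in wild-type spermatocytes, a sum whose separation was partly fixed by the choice of Stra8. The library left out as wild-type spermatocyte replicate 3 did not share this profile: 7 of the 10 members lay above the range of the wild-type libraries used, 2 lay below it and 1 inside.

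**Figure D3:**
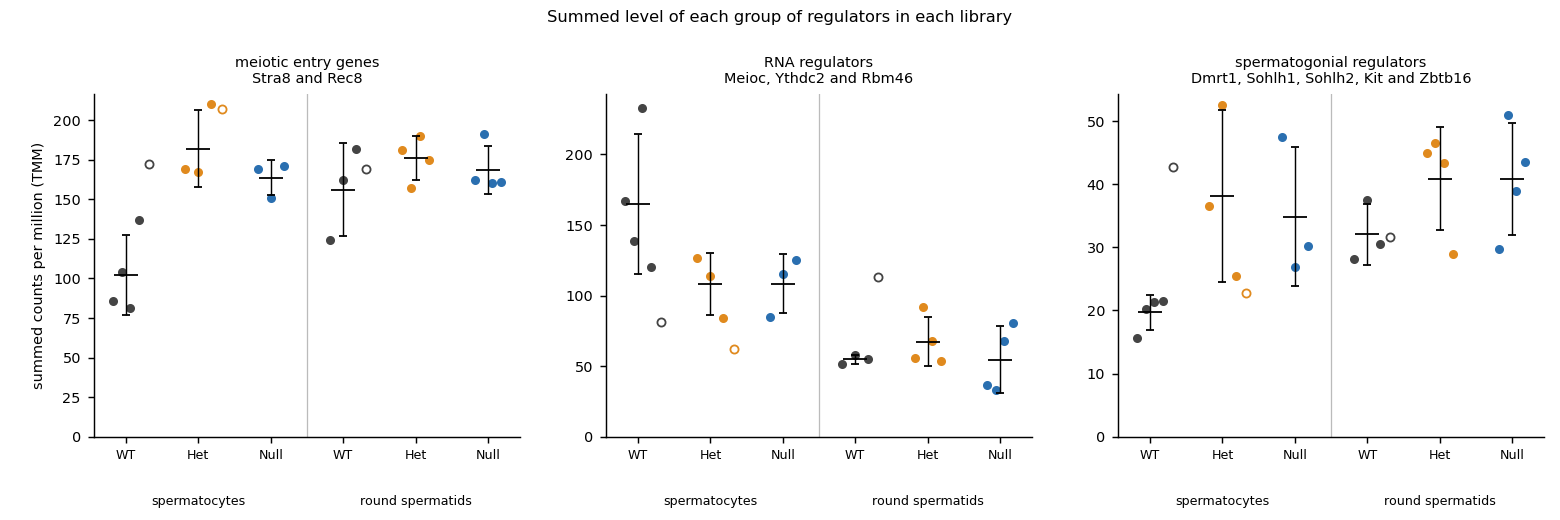
Summed CPM (TMM-scaled, linear axes from 0) of the meiotic entry genes, the RNA regulators and the spermatogonial regulators in every library, by fraction and genotype. Filled points are libraries used, open points left out, bars the mean and SD of the filled points; the wild-type spermatocytes are lowest for the spermatogonial regulators (15.6 to 21.5 CPM) and reach highest for the RNA regulators (233 CPM), and the sum of the meiotic entry genes includes Stra8, which was chosen on these libraries.

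In round spermatids no member was called in any genotype comparison. For null against wild type, edgeR and DESeq2 called none of 10 and none had an unadjusted p below 0.05. Of all genes, 0.0518% were called by edgeR and 3.64% by DESeq2, and 19.3% had an unadjusted edgeR p below 0.05. Kit was at 6.59, 9.89 and 7.91 CPM in wild-type, 14.3, 15.0, 14.8 and 7.70 CPM in heterozygous and 7.12, 14.4, 10.6 and 13.6 CPM in null round spermatids. In each mutant group, 3 of the 4 Kit values lay above all wild-type values. The null difference was 0.45 on the log2 scale (SE 0.27, edgeR's adjusted p = 0.379), and the heterozygous one 0.65 (SE 0.27, edgeR's adjusted p = 0.551). Rec8 was at 116 to 173 CPM in wild-type and 152 to 177 CPM in null libraries, with a log2 difference of 0.07 (95% interval -0.20 to 0.34, edgeR's adjusted p = 0.797).

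Meioc was split among the null round spermatids. It was at 33.1, 36.3 and 33.9 CPM in wild-type and 23.2, 20.8, 44.6 and 55.5 CPM in null libraries, so that null replicates 1 and 2 lay below and replicates 3 and 4 above all wild-type libraries. Rbm46 was split the same way about 13 to 13.5 CPM in wild type, at 7.03 and 6.47 CPM in null replicates 1 and 2 and 14.7 and 14.9 CPM in replicates 3 and 4. Null replicates 1 and 2 have library numbers 53 and 59 and replicates 3 and 4 have 83 and 89. The group differences were 0.03 (SE 0.29, edgeR's adjusted p = 0.962) for Meioc and -0.32 (SE 0.33, edgeR's adjusted p = 0.619) for Rbm46. Heterozygous round spermatids had Meioc at 37.5, 61.6, 46.7 and 38.6 CPM, all above the wild-type libraries used.

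For heterozygous against wild-type round spermatids, edgeR called no member, as DESeq2 did, and 1 (Kit) had an unadjusted p below 0.05, as did 8.88% of all genes, with 0.0207% of all genes called by edgeR. Meioc was the 1 member that was higher without overlap (5.35% of all genes), and none was lower without overlap (4.13% of all genes). The Meioc difference was 0.41 on the log2 scale (SE 0.29, edgeR's adjusted p = 0.682). For null against heterozygous round spermatids, edgeR and DESeq2 called no member and none had an unadjusted p below 0.05, against 7.67% of all genes, with 0.00518% of all genes called by edgeR. No member was without overlap in that pair (1.6% of all genes higher, 2.65% lower), nor between null and wild-type round spermatids (9.9% of all genes higher, 10% lower).

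Between the fractions, wild-type round spermatids and spermatocytes differed for 6 of the 9 members tested. Rec8, Dmrt1 and Sohlh1 were higher and Meioc, Ythdc2 and Rbm46 lower in round spermatids, and edgeR called 24.2% of all genes, 12.7% as higher and 11.4% as lower. Meioc fell from 114 ± 31.4 CPM (SD, n = 4) to 34.4 ± 1.63 CPM (SD, n = 3), a log2 fold change of -1.68 (SE 0.28, edgeR's adjusted p = 0.000509). Ythdc2 fell from 18.6 ± 9.19 to 7.18 ± 1.75 CPM (SD, n = 4 and 3), a log2 fold change of -1.33 (SE 0.32, edgeR's adjusted p = 0.00458). Rbm46 fell from 32.3 ± 8.95 to 13.2 ± 0.263 CPM (SD, n = 4 and 3), a log2 fold change of -1.25 (SE 0.32, edgeR's adjusted p = 0.00675). All wild-type spermatocyte libraries lay above all wild-type round spermatid libraries for these 3 genes, as they did for 18.1% of all genes.

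Sohlh1 rose from 1.47 ± 0.346 to 3.28 ± 0.368 CPM (SD, n = 4 and 3), a log2 fold change of 1.19 (SE 0.30, edgeR's adjusted p = 0.00581). Dmrt1 rose from 8.08 ± 1.41 to 14.1 ± 1.60 CPM (SD, n = 4 and 3), a log2 fold change of 0.84 (SE 0.26, edgeR's adjusted p = 0.0209). For both, the round spermatid libraries lay above all spermatocyte libraries, as they did for 16% of all genes. Rec8 rose from 97.7 ± 25.9 to 147 ± 28.7 CPM (SD, n = 4 and 3), a log2 fold change of 0.63 (SE 0.17, edgeR's adjusted p = 0.00931), though the libraries overlapped. Sohlh2, at 0.67 (SE 0.26, edgeR's adjusted p = 0.0595), Kit, at 0.56 (SE 0.29, edgeR's adjusted p = 0.162), and Zbtb16, at 0.50 (SE 0.43, edgeR's adjusted p = 0.42), were not called. DESeq2 called 7 members, the same 6 and Sohlh2 (adjusted p = 0.0418), and 26.7% of all genes. Dmrt1 lost its call without spermatocyte wild-type replicate 1 or without round spermatid wild-type replicate 2 or 4, and Rec8 without round spermatid wild-type replicate 4, while Sohlh2 gained one without spermatocyte wild-type replicate 4 (edgeR's adjusted p = 0.0155) or round spermatid wild-type replicate 4 (edgeR's adjusted p = 0.0498). Among the libraries numbered up to 60, the log2 ratio of mean CPM was -1.83 for Meioc, -1.65 for Ythdc2 and 1.18 for Sohlh1, and in the 1 pair of libraries above 60 it was -1.34, -0.30 and 1.06.

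The same contrast in null mice was called for Meioc, which fell from 74.1 ± 15.8 CPM (SD, n = 3) to 36 ± 16.8 CPM (SD, n = 4), a log2 fold change of -1.02 (SE 0.27, edgeR's adjusted p = 0.0102). Rbm46 fell from 22.8 ± 6.06 to 10.8 ± 4.63 CPM (SD, n = 3 and 4), a log2 fold change of -1.06 (SE 0.31, edgeR's adjusted p = 0.0217). Ythdc2 was at 11.8 ± 0.552 and 7.83 ± 2.22 CPM (SD, n = 3 and 4), without overlap, and was not called at -0.56 (SE 0.31, edgeR's adjusted p = 0.224). The libraries of Meioc and Rbm46 did not overlap either, so that 3 of 10 members were lower without overlap, against 12.8% of all genes, and none was higher, against 17.9%. The background here was 17.1% of all genes called, 11.7% higher and 5.42% lower, and 2 of 10 members were called, both lower. Markers of other cells were higher in null round spermatids: edgeR called 4 of 10 Sertoli cell markers (10 above 0, median 1.51), 7 of 10 macrophage, 3 of 6 endothelial, 2 of 5 peritubular myoid and 3 of 3 erythrocyte markers tested. In spermatocytes alone, 6 of 10 macrophage and 1 of 5 erythrocyte markers passed the filter on low counts. The others tested passed only with the round spermatid libraries, which favoured a call as higher. Sertoli cell markers summed to 91.6 to 170 CPM in null spermatocytes and 236 to 442 CPM in null round spermatids. The part of these cells in the result was not tested. Without spermatocyte null replicate 3 neither was called, and without spermatocyte null replicate 2, round spermatid null replicate 1 or round spermatid null replicate 2 only Meioc was. Dmrt1, at 0.48 (SE 0.26, edgeR's adjusted p = 0.215), was called higher without spermatocyte null replicate 1, at 0.89 (edgeR's adjusted p = 0.022).

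In heterozygous mice no member of 9 was called between the fractions by edgeR or DESeq2, 2 (Meioc and Rbm46) had an unadjusted p below 0.05, as did 23.6% of all genes, and 8.89% of all genes were called by edgeR. Meioc differed by -0.65 on the log2 scale (SE 0.26, edgeR's adjusted p = 0.133) and Rbm46 by -0.76 (SE 0.31, edgeR's adjusted p = 0.135). Without round spermatid heterozygous replicate 2, Rbm46 was called at -1.06 (edgeR's adjusted p = 0.0304). With the 3 libraries called outliers returned to their labelled groups, no member was called between fractions in any genotype, and in wild type the Meioc difference was then -1.14 (edgeR's adjusted p = 0.063). In null mice, which have no such library, the differences stayed at -1.02 for Meioc (edgeR's adjusted p = 0.0544) and -1.06 for Rbm46 (edgeR's adjusted p = 0.0609). The share of all genes called with the outlier libraries added is not given here. The loss of calls can therefore not be read as one of these members alone. Of those libraries, round spermatid wild-type replicate 3 held 79.8 CPM of Meioc, 1600 CPM summed over early meiotic prophase genes and 16.4 CPM of macrophage markers, and spermatocyte wild-type replicate 3 held 54.7 CPM of Meioc, 1060 CPM of early meiotic prophase genes and 54.1 CPM of macrophage markers. In the wild-type libraries used, the early meiotic prophase sum was 1210 to 1850 CPM in spermatocytes and 779 to 885 CPM in round spermatids. Whether the labels of these libraries were exchanged was not tested. Macrophage markers also separated the fractions, at 7.80 to 13.7 CPM summed over 10 genes in wild-type spermatocytes and 37.5 to 49.9 CPM in wild-type round spermatids, and so did 6 endothelial markers, at 10.0 to 13.3 and 21.1 to 23 CPM. Their part in the result was not tested.

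**Figure D4:**
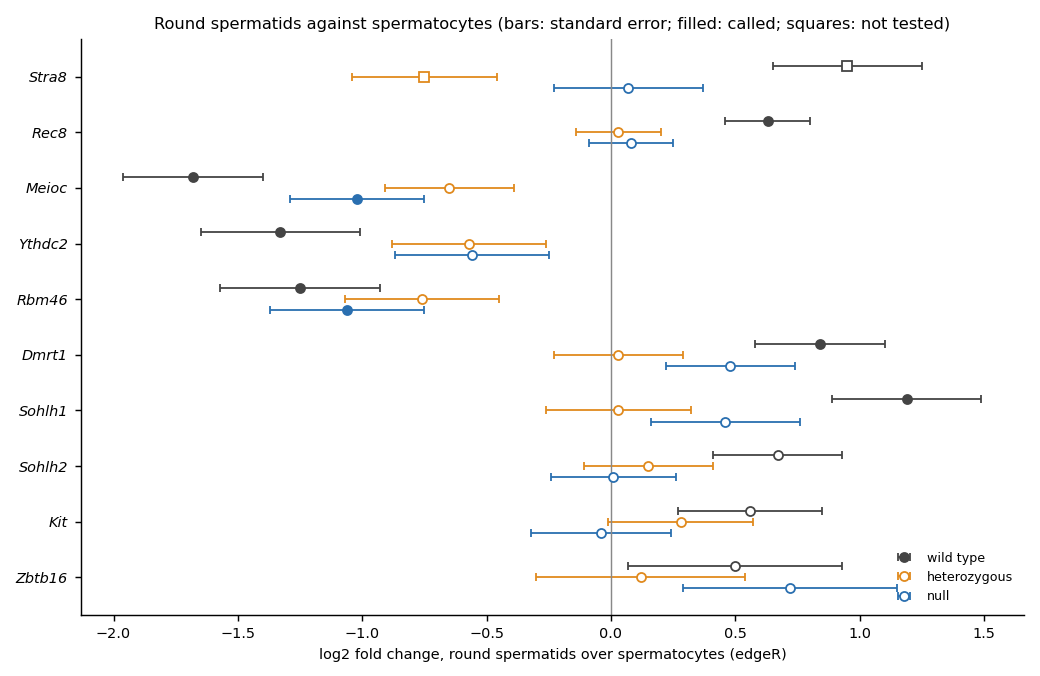
Log2 fold change of round spermatids over spermatocytes (edgeR) for each gene in wild-type, heterozygous and null mice, with the standard error as a bar. Filled symbols were called, open circles were not, and squares were not tested; Meioc and Rbm46 are called lower in wild type (-1.68 and -1.25) and null (-1.02 and -1.06).

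Whether the null difference itself changed between fractions was tested as an interaction. EdgeR called none of 9 members, DESeq2 called none, 1 (Rec8) had an unadjusted p below 0.05, as did 5.95% of all genes, and 0% of all 20404 genes were called. The null difference in round spermatids minus that in spermatocytes was -0.55 for Rec8 (SE 0.24, edgeR's adjusted p = 0.807), -0.60 for Kit (SE 0.41, edgeR's adjusted p = 0.81) and 0.66 for Meioc (SE 0.38, edgeR's adjusted p = 0.807). The 95% interval for Kit ran from -1.39 to 0.20.

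Genes from the surrounding pathways were read from fixed lists. Of 20 retinoic acid genes, which cover synthesis, binding, receptors and breakdown of the signal that induces Stra8, 17 were tested in spermatocytes. None was called for null against wild type, and 5 had an unadjusted edgeR p below 0.05, as did 30.4% of all genes. Their median log2 fold change was 0.04, against -0.03 over all genes. Their summed level was 224 to 278 CPM in wild-type, 187 to 242 CPM in heterozygous and 203 to 228 CPM in null spermatocytes. Between the fractions of wild-type mice 5 of 18 were called higher in round spermatids and none lower, against 12.7% and 11.4% of all genes. The receptor gene Rarb rose by a log2 fold change of 2.64 (SE 0.70, edgeR's adjusted p = 0.00825), from a mean of 0.112 CPM to 0.691 CPM. The lower mean lies within the 0.0938 to 0.226 CPM that 3 counts make up, so the size of this rise is poorly fixed. In this comparison a gene could pass the filter on counts through round spermatids alone. The receptor gene Rxrg rose by a log2 fold change of 2.27 (SE 0.46, edgeR's adjusted p = 0.00141) and Cyp26b1, which encodes a retinoic acid hydroxylase, by 1.42 (SE 0.51, edgeR's adjusted p = 0.0423).

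Of 20 genes of early meiotic prophase, the downstream programme, 19 were tested in spermatocytes and none was called for null against wild type. Of these, 10 had an unadjusted edgeR p below 0.05, as did 30.4% of all genes, and the median log2 fold change was 0.04. In wild-type mice 7 of 20 were called lower and 1 higher in round spermatids, against 11.4% and 12.7% of all genes. Sycp2, of the synaptonemal complex, fell from 143 to 24.7 mean CPM (log2 fold change -2.50, SE 0.51, edgeR's adjusted p = 0.00152). Sycp3, which encodes an axial element protein of the same complex, fell from 135 to 41.5 mean CPM (log2 fold change -1.66, SE 0.29, edgeR's adjusted p = 0.000594), and Hormad1, another axis gene, from 66.5 to 20.6 mean CPM (log2 fold change -1.65, SE 0.28, edgeR's adjusted p = 0.000548). In null mice 6 of 20 were called lower, against 5.42% of all genes, and none higher, against 11.7%. Sycp2 was among the lower ones (log2 fold change -1.96, SE 0.47, edgeR's adjusted p = 0.0063).

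Of 24 further spermatogonial genes, 19 were tested in spermatocytes and none was called for null against wild type. Of these, 2 had an unadjusted edgeR p below 0.05, as did 30.4% of all genes. Their log2 fold changes had a median of -0.11, with 7 of 19 above 0. For heterozygous against wild-type spermatocytes, which was not tested, the median was 0.46, with 15 of 19 above 0. The list summed to 75.9 to 131 CPM in wild-type and 64.4 to 86.9 CPM in null spermatocytes. In wild-type mice 3 of 20 were called higher in round spermatids and 1 lower, against 12.7% and 11.4% of all genes. Lhx1 rose by 2.76 (SE 0.44, edgeR's adjusted p = 0.000482) and Id4, a gene of spermatogonial stem cells, fell by 1.39 on the log2 scale (SE 0.33, edgeR's adjusted p = 0.0038).

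Markers of somatic cells were read beside these genes. Summed over 10 Sertoli cell markers, levels were 152 to 427 CPM in wild-type, 85.1 to 463 CPM in heterozygous and 91.6 to 170 CPM in null spermatocytes. Summed over 6 endothelial markers they were 10.0 to 13.3 CPM in wild-type and 14 to 16.6 CPM in null spermatocytes, and over 6 peritubular myoid markers 6.85 to 10.6 and 6.05 to 8.76 CPM. Summed over 9 Leydig cell markers they were 4.02 to 16.5 CPM in wild-type, 9.65 to 33.8 CPM in heterozygous and 6.12 to 9.66 CPM in null spermatocytes. Over 5 erythrocyte markers they were 1.59 to 6.54 CPM in wild-type and 0.992 to 2.25 CPM in null spermatocytes. Macrophage markers summed to 7.80 to 13.7 CPM in wild-type, 10.3 to 19.4 CPM in heterozygous and 11.5 to 26.7 CPM in null spermatocytes, and 2 of the 10 (Lyz2 and C1qc) were at 0 in wild-type spermatocytes. Kit is also expressed outside the germ line. The part of somatic cells in the values of Kit, Dmrt1 and the other members was not tested.

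The genes whose log2 CPM was most like that of Stra8 over the 21 libraries were sought among 20403 tested genes. The 5 closest by Pearson's r were Rhox13 (0.921), Map7d2 (0.902), Ptma (0.869), Atp6ap2 (0.869) and Cenpa (0.865). Rhox13 averaged 1.57 CPM in wild-type, 5.08 CPM in heterozygous and 2.74 CPM in null spermatocytes, the same order as Stra8. Meiosin was in place 40, with r of 0.768. Among the members, Sohlh1 was closest at 0.721, then Dmrt1 at 0.669, Kit at 0.654, Rec8 at 0.624, Sohlh2 at 0.55 and Zbtb16 at 0.369, while Ythdc2 was at -0.202, Rbm46 at -0.271 and Meioc at -0.293. These values describe libraries that share preparation and depth, and the heterozygous spermatocytes, on which Stra8 was chosen, weigh on all of them.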

How the data were processed

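Poly(A) RNA was sequenced from 24 libraries, and 1 table of counts per gene was analysed. Per the labels and the study's methods, the authors trimmed reads with Trim Galore, mapped them to mm10 with STAR and deposited raw whole-number counts per gene from STAR's gene counting, without pooling replicates. Libraries were directional. The strand column and annotation release are not given in the sources used here. STAR counts uniquely mapped reads, so reads shared with a near-identical gene are lost.

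Gene names, positions and exon lengths came from GENCODE M21, which matched 55536 of 55536 identifiers. No member overlapped another gene. Libraries the labels call outliers were left out. Genes reaching 10 counts in 3 or more libraries were tested with edgeR 4.0.16 in R 4.3.3 (TMM, quasi-likelihood, Benjamini-Hochberg over all genes tested), with 3 genotypes in a fit per fraction and 6 groups in a fit over both fractions. DESeq2 1.42.0, the study's own tool, was an alternative. Each SE is the absolute log2 fold change over the square root of F, and each 95% interval is 1.96 SE either side. CPM for display used TMM over all 24 libraries. Likeness to Stra8 used log2(CPM + 0.1). Alternatives were another scaling, no filter, added libraries, a replicate block, a term for library number and each library left out. The steps were tested on simulated data. Depth allows a floor of 3 counts, or 0.0938 to 0.226 CPM, for counting error only.

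The members and the gene lists were chosen with earlier results of these data known. Named genes were the 10 members, Ago1, Ago3, Ago4, Meiosin, Kitl, up to 3 called genes per list by size of change, and the 5 genes most like Stra8. Libraries of a group differed by more than sampling noise (chi-square per gene 9.75 to 179 over 37 pairs), so none was a duplicate.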

Additional observations from a re-analysis of the deposited data

Results flagged for a closer look

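Within groups of 4 libraries, Dixon's test at the 95% level was run on 30 combinations of member and group, of which chance flags about 1 in 20, and 3 held a library apart from its group. Rec8 was at 177 CPM in 1 null round spermatid library, with the other libraries of the group at 152 to 154 CPM. Sohlh2 was at 4.02 CPM in 1 wild-type spermatocyte library, with the others at 2.15 to 2.35 CPM. Kit was at 7.70 CPM in 1 heterozygous round spermatid library, with the others at 14.3 to 15.0 CPM.

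The libraries left out of the comparisons held members outside the range of their groups. In spermatocyte wild-type replicate 3, Stra8 was at 9.75 CPM (highest used 5.62), Rec8 at 163 (133), Dmrt1 at 19.7 (9.40), Sohlh1 at 2.77 (1.75), Sohlh2 at 4.27 (4.02), Kit at 12.7 (7.50) and Zbtb16 at 3.30 CPM (2.76). In round spermatid wild-type replicate 3, Meioc was at 79.8 CPM (highest used 36.3), Ythdc2 at 13.9 (8.50), Rbm46 at 18.8 (13.5) and Kit at 11.9 CPM (9.89). In each of these libraries some members lay below the lowest library used, namely Meioc and Rbm46 in spermatocyte wild-type replicate 3 and Stra8, Dmrt1 and Sohlh1 in round spermatid wild-type replicate 3. In spermatocyte heterozygous replicate 4, 7 of the 10 members lay below the range of the heterozygous libraries used, 1 lay above it and 2 inside, with Stra8 at 4.64 CPM against 14.9 to 23.8 CPM.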

How the results depend on the processing

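Over 10 comparisons, single members were refitted to give 1217 alternative values, of which 1182 kept direction and side of the threshold or were called in neither fit, 17 lost and 18 gained a call, none reversed a called direction, and 82 changed sign while called in neither fit. For null against wild-type spermatocytes, members called went from 0 to 3 with DESeq2, 3 without the filter on low counts and 2 with only the groups compared, and ran from 0 to 3 with 1 library left out. For round spermatids against spermatocytes, adding the libraries called outliers left 0 of 6 in wild type and 0 of 2 in null. No filter gave 2 in heterozygous mice. With 1 library left out the counts were 5 to 7 in wild type, 0 to 1 in heterozygous and 0 to 3 in null mice. The Stra8 difference of 2.08 in heterozygous spermatocytes became 1.49 with the libraries called outliers, and was 1.81 to 2.26 with 1 library left out. The causes were not tested.

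Same replicate numbers were not taken as pairs in the main fit. Deviations of same-numbered libraries correlated at -0.057 to 0.168 in spermatocytes, above 0.1 in 4 of 7 pairs. In round spermatids they correlated at -0.243 to 0.086, above 0.1 in 0 of 10 pairs. With a replicate block, 6 members were called between fractions in wild type, 2 in null and 0 in each other comparison, as without it. Libraries of consecutive numbers in the 2 fractions correlated at -0.14 to 0.307, above 0.1 in 8 of 9 pairs. A block on consecutive numbers gave the same counts, as did a term for library number above 60 within each fraction. Sohlh1, Sohlh2 and Zbtb16 had the lowest counts of the members, down to 20, 30 and 22 in the wild-type spermatocyte libraries used.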
